A study of Mus musculus with 9 samples.

Results

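The expression of 10 regulators of programmed cell death was examined in mouse primary renal tubular epithelial cells: the inhibitors of apoptosis Birc2, Birc3 and Xiap, the anti-apoptotic Bcl2 proteins Bcl2, Bcl2l1 (Bcl-xL) and Mcl1, the pore-forming effector Bak1, and the BH3-only genes Bcl2l11 (Bim), Bid and Bad. They were taken by gene symbol from a table of 31167 genes, and all 10 passed the filter on low values that left 13985 genes for testing. The cells came from kidneys of C57BL/6 mice and formed 3 groups of 3 libraries each. The Sham group was the control, and the study describes it as untreated. The H/R group was kept for 6 h at 1.0% oxygen in medium without glucose and then for 18 h in complete medium under normal conditions, a culture model of ischemia and reperfusion. The EGR1OV group was transfected with a plasmid for Egr1, an immediate early zinc finger transcription factor, which the study's methods place under a cytomegalovirus promoter. The study lists the plasmid and H/R as alternative treatments, so the EGR1OV cells are taken as not having gone through hypoxia, although the labels do not say so and the general methods place hypoxia after transfection. With untreated Sham cells, Egr1 and transfection with a plasmid as such cannot be told apart. Nothing says that the libraries of a group came from separate animals or cultures, and p-values therefore measure the spread between these samples, which may be technical.

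Apoptosis of the intrinsic type is decided at the outer membrane of mitochondria. Anti-apoptotic proteins of the Bcl2 family hold the effectors Bak1 and Bax in check, BH3-only proteins bind them or activate the effectors, and an open pore lets cytochrome c out and caspases start. Inhibitors of apoptosis act downstream: Xiap binds caspases directly, while Birc2 and Birc3 (cIAP1 and cIAP2) are ubiquitin ligases of tumour necrosis factor receptor and NF-kB signalling. In the kidney, death of tubular cells by this route is a known part of acute injury by ischemia and by toxins.

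The 250 bases before an annotated start of transcription are shown for Bid, Birc3, Bcl2l11 and Bcl2l1, 5′ to 3′ in the direction of the gene. They come from RefSeq promoter windows on GRCm38.p6. Bcl2l11 and Bcl2l1 have further annotated starts, and only the window with the motif is shown. Bcl2 and Bak1, which were also called below, are not shown. Birc3 and Bid had the largest differences from Sham, Bcl2l11 held the only Egr1 motif, and Bcl2l1 the only NF-kB motif among the windows of the 10 genes. Capitals mark the motif, and the windows of Bid and Birc3 have no match to the letters searched, which are given below.
Bid, chr6:120916825-120917074, minus strand: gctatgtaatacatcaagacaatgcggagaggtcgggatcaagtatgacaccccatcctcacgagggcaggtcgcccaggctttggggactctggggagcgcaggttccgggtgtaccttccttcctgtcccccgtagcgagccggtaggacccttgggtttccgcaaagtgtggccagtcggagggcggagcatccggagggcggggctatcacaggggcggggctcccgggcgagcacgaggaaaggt
Birc3, chr9:7873171-7873420, minus strand: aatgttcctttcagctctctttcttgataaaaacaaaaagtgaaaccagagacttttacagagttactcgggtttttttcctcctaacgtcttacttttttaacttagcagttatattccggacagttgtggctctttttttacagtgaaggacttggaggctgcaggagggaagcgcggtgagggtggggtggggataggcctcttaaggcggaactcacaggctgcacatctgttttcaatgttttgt
Bcl2l11, chr2:128125788-128126037, plus strand: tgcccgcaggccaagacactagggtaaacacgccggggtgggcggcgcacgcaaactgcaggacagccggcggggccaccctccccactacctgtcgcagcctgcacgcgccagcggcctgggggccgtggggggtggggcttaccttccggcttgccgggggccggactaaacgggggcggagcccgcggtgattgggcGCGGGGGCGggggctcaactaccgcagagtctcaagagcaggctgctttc
Bcl2l1, chr2:152830718-152830967, minus strand: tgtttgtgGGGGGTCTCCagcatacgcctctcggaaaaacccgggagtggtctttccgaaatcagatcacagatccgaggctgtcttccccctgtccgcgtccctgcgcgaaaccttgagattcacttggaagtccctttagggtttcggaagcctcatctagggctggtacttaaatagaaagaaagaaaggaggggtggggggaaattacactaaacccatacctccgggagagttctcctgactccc

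All 10 genes had at least 1 window, 17 in all, since several have more than 1 annotated start. Windows of 300 bases, from 250 before the start to 50 after it, were searched on both strands for GCGNGGGCG, a core of the Egr1 site, and it stood in 1 of the 17 (5.88%), beside 5.55% of all 32851 windows. In the Bcl2l11 window it covered bases 50 to 42 before the start. The NF-kB motif was likewise found in 1 window, that of Bcl2l1, at 242 to 233 bases before the start, beside 4.51% of all windows. GAAANNGAAA, a core of the interferon response element, was in 0 of the 17 and in 3.44% of all, and ACGTG, the core of the site of hypoxia-inducible factors, was in 1 (a Xiap window) and in 19.6% of all. These shares over the 10 genes are therefore close to the background for the Egr1 and NF-kB motifs, and a match describes letters only. The Egr1 site that the study tested in the Sox9 promoter does not match GCGNGGGCG. A window without a match can therefore still hold a site of another form.

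Levels are in FPKM, fragments per kilobase of exon with the depth of the library divided out, which allows genes to be set side by side per length. In Sham, Mcl1 was the highest of the 10 at 55.8 ± 1.88 FPKM (SD, n = 3, as for every mean below), followed by Bcl2l1 at 44.4 ± 1.07, Bak1 at 21.4 ± 0.273 and Bid at 12.5 ± 0.549. Bad stood at 10.5 ± 0.636, Xiap at 9.35 ± 0.134, Birc2 at 7.16 ± 0.471, Bcl2 at 5.02 ± 0.115, Birc3 at 4.84 ± 0.129 and Bcl2l11 at 3.45 ± 0.340. Only Bcl2 and Birc3 were neighbours in this order whose libraries overlapped. In H/R, Xiap stood above Bad and Birc3 above Bcl2, but the libraries of both pairs overlapped. In EGR1OV, Bid moved up beside Bak1 (28.5 ± 0.739 and 29.7 ± 0.957 FPKM, overlapping), Birc3 passed Xiap and Birc2, and Bcl2 came last at 3.11 ± 0.263.

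**Figure D1:**
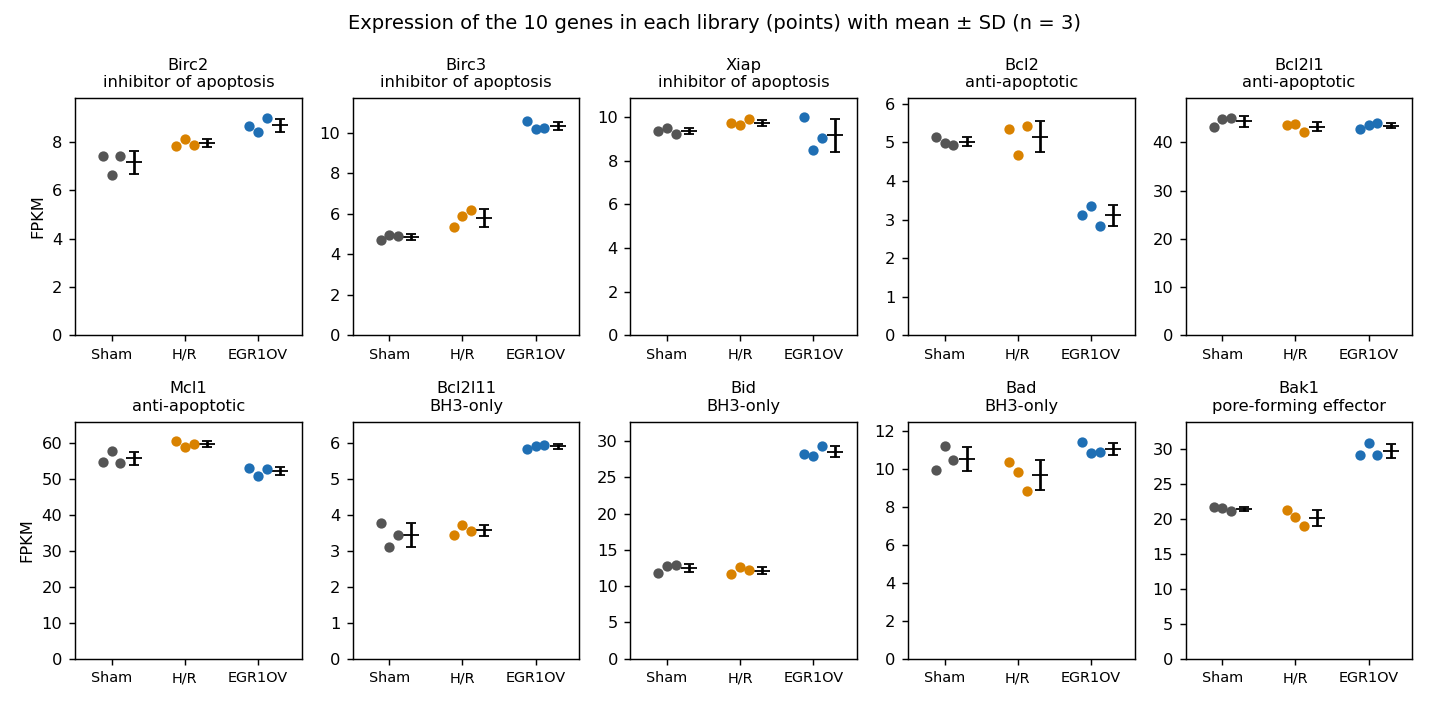
FPKM of the 10 genes (vertical axes, each from 0) in the Sham, H/R and EGR1OV groups; points are libraries and bars the mean ± SD of 3. Birc3, Bid, Bcl2l11 and Bak1 stand higher in every EGR1OV library than in any other, Bcl2 stands lower, and Sham and H/R lie close together in most panels.

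The first question was how the 10 genes differ between EGR1OV and Sham. Among the inhibitors of apoptosis Birc3 rose 2.13-fold, Bcl2 alone of the 3 anti-apoptotic genes fell, to 0.619 of its Sham level, the effector Bak1 rose 1.38-fold, and of the BH3-only genes Bid rose 2.28-fold and Bcl2l11 1.71-fold. In all, 5 of the 10 were called, 4 higher and 1 lower, at an adjusted p under 0.05 and at least 1.3-fold in limma's test on log2(FPKM + 1) over all genes, with Benjamini-Hochberg adjustment. Of all 13985 genes, 16.4% were called in this comparison, 9.87% higher and 6.51% lower. The median log2 change was 0.16 over the 10 genes and 0.02 over all genes.

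Birc3 (ENSMUSG00000032000, GRCm38 chromosome 9, 7848699 to 7873186, minus strand) is the inhibitor of apoptosis that NF-kB is known to induce. Its level was 4.70, 4.95 and 4.89 FPKM in the Sham libraries and 10.6, 10.2 and 10.2 in the EGR1OV libraries. The groups lay far apart, and the log2 change was 0.95 (SE 0.05, limma adjusted p = 3.79e-07). Birc2, which lies beside it on chromosome 9 and codes for the closely related cIAP1, measured 7.44, 6.61 and 7.42 FPKM in Sham and 8.66, 8.42 and 8.98 in EGR1OV. Those libraries did not overlap either, but the difference of 0.25 (SE 0.05, limma adjusted p = 0.0022) stayed under the 1.3-fold threshold. The ratio of Birc3 to Birc2 within a library was accordingly 0.680 ± 0.0609 in Sham and 1.19 ± 0.0437 in EGR1OV. Xiap, the direct caspase inhibitor, was not called: its EGR1OV libraries of 9.997, 8.50 and 9.02 FPKM spanned those of Sham (9.35, 9.48 and 9.21), and the interval of the log2 difference ran from -0.14 to 0.09.

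The only call in the lower direction was among the anti-apoptotic genes. Bcl2 (ENSMUSG00000057329, chromosome 1, 106538178 to 106714274, minus strand), the founding member of the family, was at 5.15, 4.97 and 4.93 FPKM in Sham and at 3.12, 3.36 and 2.84 in EGR1OV. Each EGR1OV library was below each Sham library, with a log2 change of -0.55 (SE 0.06, limma adjusted p = 9.32e-05). Bcl2l1, whose product also guards mitochondria, was at 43.1, 44.9 and 45.1 FPKM in Sham and 42.8, 43.6 and 44.0 in EGR1OV, overlapping, with a 95% interval of the log2 difference from -0.09 to 0.03. Mcl1, a short-lived protein that binds Bak1 and Bim, was at 54.7, 58.0 and 54.7 FPKM in Sham and 53.0, 51.0 and 53.0 in EGR1OV. Its difference of -0.09 (SE 0.03, limma adjusted p = 0.0352) was too small to be called. Summed over Bcl2, Bcl2l1 and Mcl1, the level was 105 ± 2.43 FPKM in Sham and 98.9 ± 0.914 in EGR1OV. The means went from 5.02 to 3.11 FPKM for Bcl2, 44.4 to 43.5 for Bcl2l1 and 55.8 to 52.3 for Mcl1. Bcl2 was thus the least abundant of the 3 mRNAs, and the largest part of the difference in the sum lay in Mcl1, which was not called. Since the table gives 1 value a gene, the long and short forms of Bcl2l1 and of Mcl1, which are known to act in opposite ways, are not separated.

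Bak1 (ENSMUSG00000057789, chromosome 17, 27019810 to 27029009, minus strand) forms the pore with Bax. It was at 21.7, 21.5 and 21.1 FPKM in Sham and 29.1, 30.8 and 29.1 in EGR1OV. No library of one group reached the other, and the log2 change was 0.45 (SE 0.04, limma adjusted p = 2.19e-05). With quantile normalization the change was 0.36, under the 1.3-fold threshold, and the call was lost.

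Of the 3 BH3-only genes, Bid and Bcl2l11 were called and Bad was not. Bid (ENSMUSG00000004446, chromosome 6, 120891930 to 120916853, minus strand), which caspase-8 cleaves to link death receptors to mitochondria, was at 11.9, 12.7 and 12.9 FPKM in Sham and at 28.2, 28.0 and 29.3 in EGR1OV. Its log2 change of 1.13 (SE 0.04, limma adjusted p = 3.18e-08) was the largest of the 10. The exons of Bid share 628 of 3550 bases with those of Bcl2l13 on the other strand, and whether the counting used strand is not stated; Bcl2l13 itself was at 7.22 ± 0.249 FPKM in Sham and 7.98 ± 0.156 in EGR1OV. Bcl2l11 (ENSMUSG00000027381, chromosome 2, 128126038 to 128162547, plus strand) codes for Bim, a BH3-only protein that binds every anti-apoptotic member. It was at 3.79, 3.11 and 3.44 FPKM in Sham and at 5.83, 5.93 and 5.94 in EGR1OV, with a log2 change of 0.64 (SE 0.06, limma adjusted p = 2.05e-05). Bad, which is controlled mainly by phosphorylation, was at 9.94, 11.2 and 10.4 FPKM in Sham and 11.4, 10.9 and 10.9 in EGR1OV. Those libraries overlapped, and the 95% interval of the log2 difference ran from -0.07 to 0.20. Of the 2558 exon bases of Bad, 1470 are also exons of Gpr137 on the other strand. Gpr137 had a mean of 6.58 FPKM over the 9 libraries, so the values of Bad are uncertain.

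**Figure D2:**
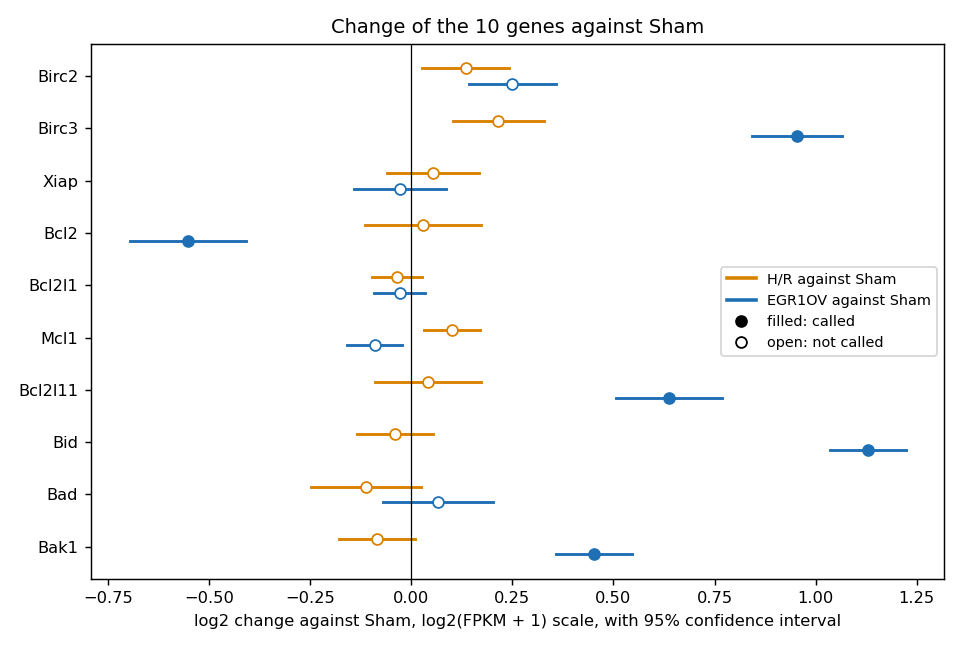
Log2 change against Sham on the log2(FPKM + 1) scale (horizontal axis) for H/R and EGR1OV, as points with 95% confidence intervals; filled points were called. Bid (1.13) and Birc3 (0.95) lie farthest to the right and Bcl2 (-0.55) to the left in EGR1OV, and no H/R point is filled.

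Ratios within a library set the same values side by side without reference to depth. Each holds a gene already called above, so they restate those calls and are no separate evidence. The ratio and the sum that use Bad rest on values that are uncertain, as given above. Bcl2l11 to Bcl2 was 0.736, 0.625 and 0.698 in Sham, 0.643, 0.798 and 0.651 after H/R, and 1.87, 1.76 and 2.096 in EGR1OV. The mRNA of Bim was therefore below that of Bcl2 in every Sham and H/R library and above it in every EGR1OV library, per length. Bid to Bad went from 1.19 ± 0.0481 in Sham to 2.58 ± 0.113 in EGR1OV, with H/R at 1.26 ± 0.132. The summed level of Bcl2l11, Bid and Bad was 26.5 ± 0.773 FPKM in Sham, 25.4 ± 0.829 after H/R and 45.5 ± 0.722 in EGR1OV, and that of Birc2, Birc3 and Xiap was 21.4 ± 0.268, 23.5 ± 0.569 and 28.2 ± 1.05. The sum of Bcl2l11, Bid and Bad and that of the inhibitors of apoptosis were thus both higher in EGR1OV than in Sham, with no overlap between the libraries. The first sum leaves out the other BH3-only genes and does not stand for all BH3-only mRNA. Among those left out, Pmaip1 alone was at 258 FPKM in Sham and 241 in EGR1OV, with overlapping libraries.

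**Figure D3:**
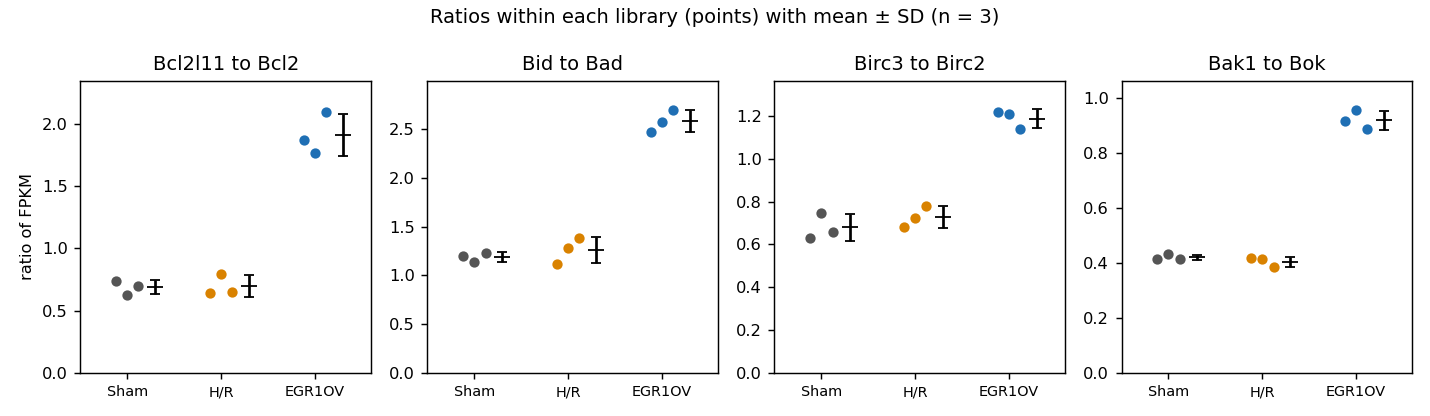
Ratios of FPKM (vertical axes, from 0) within each library for Bcl2l11 to Bcl2, Bid to Bad, Birc3 to Birc2 and Bak1 to Bok; points are libraries and bars the mean ± SD of 3. In each panel the EGR1OV libraries stand apart above Sham and H/R, as for Bcl2l11 to Bcl2 with means of 0.686, 0.697 and 1.91. Each panel holds a gene called in EGR1OV against Sham, so this separation is not a further result.

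A second question was whether H/R moved the same genes. It moved none of the 10 past the thresholds of an adjusted p under 0.05 and 1.2-fold (limma), where 4.25% of all genes were called, 1.6% higher and 2.65% lower. Without adjustment 3 of the 10 had a limma p under 0.05 (Birc2, Birc3 and Mcl1), and the share of all genes with such a p was not computed. With limma's voom on recovered reads 0 were called as well, where 7.17% of all genes were called. Birc3 came nearest. It was at 5.32, 5.91 and 6.16 FPKM in H/R, above every Sham library, with a log2 difference of 0.22 (SE 0.05, limma adjusted p = 0.0254) that lay under the fold threshold. Without H/R replicate 1 the difference was 0.27 and Birc3 was called, while leaving out any other Sham or H/R library raised the limma adjusted p to between 0.0545 and 0.0793. Mcl1 was at 60.7, 59.1 and 59.9 FPKM in H/R, again above every Sham library, with a difference of 0.10 (SE 0.03, limma adjusted p = 0.0625). Birc2, at 7.83, 8.14 and 7.88 FPKM, differed by 0.13 (limma adjusted p = 0.103).

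For the 4 genes other than Birc3 that were called in EGR1OV, the H/R libraries overlapped those of Sham. Bid was at 11.6, 12.6 and 12.2 FPKM in H/R, Bcl2l11 at 3.43, 3.73 and 3.54, and Bcl2 at 5.34, 4.68 and 5.44. Bak1 was at 21.2, 20.3 and 18.9 FPKM, with a difference of -0.08 (limma adjusted p = 0.221). The intervals of the log2 difference were -0.13 to 0.05 for Bid, -0.09 to 0.17 for Bcl2l11, -0.11 to 0.17 for Bcl2 and -0.18 to 0.01 for Bak1. Xiap was at 9.71, 9.63 and 9.91 FPKM, Bcl2l1 at 43.7, 43.9 and 42.2, and Bad at 10.4, 9.84 and 8.82, with log2 differences of 0.06, -0.04 and -0.11. Over the 10 genes the median difference was 0.04, beside -0.03 over all genes.

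The changes in EGR1OV and H/R share the Sham libraries, so the difference between them was read from EGR1OV against H/R directly. It called 5 of the 10, 4 higher and 1 lower, where 18.9% of all genes were called, 11.9% higher and 6.94% lower. They were Bid with a log2 difference of 1.17, Birc3 with 0.74, Bcl2l11 with 0.60, Bak1 with 0.54 and Bcl2 with -0.58 (limma adjusted p from 2.38e-08 to 5.8e-05), and the libraries overlapped for none of them. Mcl1 was lower in EGR1OV than in H/R by a log2 difference of -0.19 (limma adjusted p = 0.000608) and Bad was higher by 0.18 (limma adjusted p = 0.0329), both under 1.3-fold. Birc2, Xiap and Bcl2l1 had 95% intervals of 0.01 to 0.22, -0.20 to 0.03 and -0.06 to 0.07. In single-gene exact two-sided permutation tests, which cannot go below p = 0.1 with 3 libraries against 3, that smallest value was reached by 7 of the 10 genes for EGR1OV against Sham, by 4 for H/R against Sham and by 8 for EGR1OV against H/R. Reaching it means only that the libraries of the groups compared do not overlap. The share of all genes that reach it was not computed, so these counts cannot be called high or low.

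Markers of cell types were also measured, and some differed between the groups. Of the markers of tubular epithelium, Epcam, Cdh1, Pax8, Krt8 and Krt18 were expressed in all libraries (Epcam at 76.2 ± 0.881 FPKM and Krt8 at 1014 ± 11.8 in Sham), whereas Umod was at 0 in every library and Slc34a1 and Slc12a1 were at most 0.157 FPKM. The summed level of 9 macrophage markers lay between 141 and 145 FPKM for Sham, between 117 and 124 for H/R and between 22.1 and 26.6 for EGR1OV. All 8 of the tested markers were called lower in EGR1OV against Sham, beside 6.51% of all genes. In H/R against Sham 2 were called lower, beside 2.65% of all genes, and the median log2 change of the tested markers was -0.22. Sums of the other lists were 1878 to 1917, 1734 to 1814 and 1213 to 1318 FPKM for tubular epithelium, 9.21 to 9.67, 9.41 to 9.77 and 6.52 to 7.18 for endothelium, and 31.8 to 33.4, 38.0 to 39.5 and 36.8 to 41.8 for fibroblasts. The tubular sum is mostly Krt8 and Krt18, which were at 1014 and 685 FPKM in Sham and 618 and 412 in EGR1OV. Its markers did not move together. Of the 7 tested, 1 was called higher in EGR1OV against Sham (Epcam) and 3 lower (Krt8, Krt18 and Lrp2), beside 9.87% and 6.51% of all genes. In bulk RNA, fewer cells of a type and less RNA per cell cannot be told apart. Bcl2 fell alongside the macrophage sum and Bid, Birc3, Bcl2l11 and Bak1 rose against it, and the part of cell composition in any of these changes was not tested. Egr1, the gene on the plasmid, was at 6.20, 6.91 and 6.09 FPKM in Sham, 8.57, 7.59 and 7.48 after H/R, and 45.7, 42.2 and 40.1 in EGR1OV, above every other library.

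The wider machinery was followed in a list of 36 further regulators, of which 34 were in the table and 26 passed the filter. In EGR1OV against Sham 6 of the 26 were called, 5 higher (Bcl2a1d, Bmf, Bik, Xaf1 and Bnip3) and 1 lower (Bok), a share of the list to be read beside the 16.4% of all genes. The median log2 change of the list was 0.06. In H/R against Sham 3 were called, Bnip3 higher and Birc5 and Htra2 lower, beside 4.25% of all genes, with a median of -0.03. In EGR1OV against H/R 8 were called, 6 higher (Bcl2a1d, Bax, Bmf, Bik, Xaf1 and Htra2) and 2 lower (Bok and Bnip3), beside 18.9% of all genes, with a median of 0.17.

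Bmf and Bik, further BH3-only genes, rose beside Bid and Bcl2l11 in EGR1OV. Bmf, a BH3-only protein held at the cytoskeleton, was at 2.03, 1.59 and 1.74 FPKM in Sham, 1.56, 1.53 and 1.92 after H/R and 4.99, 4.72 and 3.98 in EGR1OV (log2 change 1.00, SE 0.09, limma adjusted p = 2.12e-05 against Sham). Bik was at 1.74, 2.07 and 2.63 FPKM in Sham and 3.38, 3.83 and 3.84 in EGR1OV (log2 change 0.58, SE 0.13, limma adjusted p = 0.00587). Both stood at a few FPKM, where the log2(FPKM + 1) scale understates a change. Bbc3 (Puma) and Pmaip1 (Noxa), BH3-only targets of p53, were not called. Bbc3 was at 17.3 ± 0.377 FPKM in Sham, 14.4 ± 0.495 after H/R and 18.1 ± 0.897 in EGR1OV, and its H/R difference of -0.25 (limma adjusted p = 0.00708) lay under 1.2-fold. Pmaip1 was by far the most abundant BH3-only mRNA, at 258 ± 5.13, 233 ± 7.75 and 241 ± 15.4 FPKM, over 4 times the level of Mcl1, its main partner, in Sham (ratio 4.63 ± 0.112).

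The effectors went apart. Bok, a Bcl2 family effector that is not held by the anti-apoptotic proteins, was at 52.2, 49.7 and 50.9 FPKM in Sham and 31.7, 32.2 and 32.8 in EGR1OV (log2 change -0.64, SE 0.03, limma adjusted p = 1.13e-07), the opposite direction to Bak1. The ratio of Bak1 to Bok was 0.420 ± 0.00994 in Sham, 0.405 ± 0.0184 after H/R and 0.920 ± 0.0343 in EGR1OV. Bax was at 29.8, 26.7 and 27.2 FPKM in Sham, 23.2, 26.5 and 23.7 after H/R, and 32.5, 33.5 and 32.8 in EGR1OV. Its difference from Sham in EGR1OV (0.23, limma adjusted p = 0.00673) was under 1.3-fold, and it was called only against H/R (0.42), a call that median-ratio scaling and quantile normalization both took away. Summed over Bak1, Bax and Bok, the effectors were at 100.3 ± 3.03 FPKM in Sham, 94.4 ± 2.04 after H/R and 94.9 ± 1.59 in EGR1OV.

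Among antagonists of the inhibitors of apoptosis, Xaf1, an interferon-inducible gene whose product binds Xiap, was at 0.636, 1.15 and 0.659 FPKM in Sham, 0.567, 0.580 and 0.565 after H/R, and 39.8, 38.3 and 39.1 in EGR1OV. Its ratio of means was 47.9 and its log2 change 4.47 (SE 0.09, limma adjusted p = 4.9e-10), the largest of the list. Xaf1 was thus at 0.0869 ± 0.0298 of the level of Xiap in Sham and at 4.27 ± 0.266 times it in EGR1OV. Diablo (Smac), which is released with cytochrome c and displaces inhibitors of apoptosis from caspases, was at 3.18 ± 0.0725, 3.10 ± 0.197 and 3.37 ± 0.0892 FPKM and was not called. Htra2, a mitochondrial protease with a like binding motif, was at 10.1, 9.25 and 9.69 FPKM in Sham, 6.88, 7.50 and 7.29 after H/R and 9.91, 9.57 and 9.70 in EGR1OV. It fell in H/R (log2 change -0.38, SE 0.04, limma adjusted p = 0.00145). Its call in EGR1OV against H/R (0.38) was lost with median-ratio scaling, with quantile normalization, and without H/R replicate 1 or EGR1OV replicate 1.

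**Figure D4:**
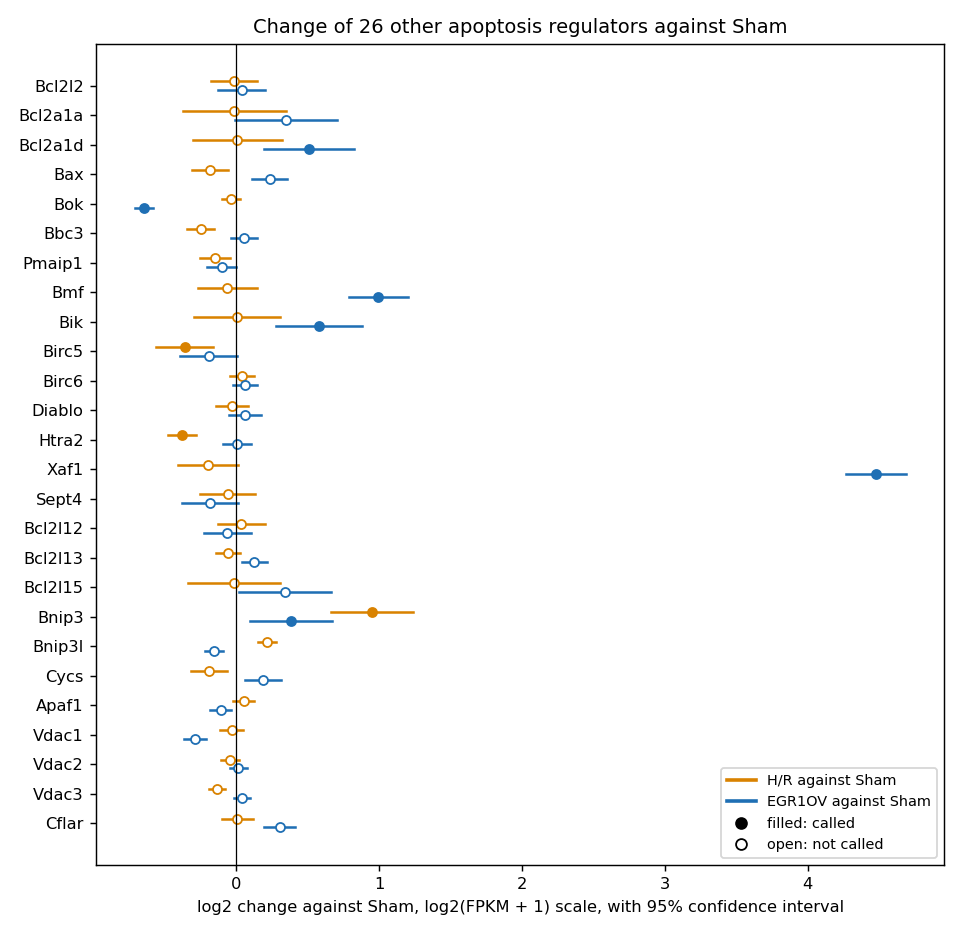
Log2 change against Sham on the log2(FPKM + 1) scale (horizontal axis) of the 26 other regulators that passed the filter, for H/R and EGR1OV, with 95% confidence intervals; filled points were called. Xaf1 lies at 4.47 in EGR1OV, Bok at -0.64, and Bnip3 at 0.95 in H/R.

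Bnip3, a mitophagy receptor of the family that hypoxia is known to induce, was at 3.49, 2.94 and 2.59 FPKM in Sham and at 6.96, 6.70 and 6.47 in H/R, a log2 change of 0.95 (SE 0.13, limma adjusted p = 0.00277). Its EGR1OV libraries, at 5.37, 3.38 and 4.07 FPKM, overlapped Sham, and the call there (0.38, limma adjusted p = 0.0344) was lost without Sham replicate 2 or 3 or EGR1OV replicate 1 or 3 (lowest value 0.24), and with median-ratio scaling, quantile normalization, no filter on low values, or only the groups compared in the fit. Its relative Bnip3l was at 31.4 ± 0.326 FPKM in Sham and 36.5 ± 0.858 in H/R, with a difference of 0.21 (limma adjusted p = 0.00245) under 1.2-fold. Birc5 (survivin), which acts in cell division, was at 4.63, 5.29 and 5.70 FPKM in Sham and 4.47, 3.74 and 3.33 in H/R (log2 change -0.36, SE 0.09, limma adjusted p = 0.0328). That call was lost without Sham replicate 2 or 3 or H/R replicate 2 or 3 (highest limma adjusted p = 0.1), and with quantile normalization, no filter on low values, the replicate block, or only the groups compared. Bcl2a1d, one of near-identical Bcl2a1 copies between which reads cannot be told apart with certainty, was at 0.632 to 0.775 FPKM in Sham and 1.03 to 2.02 in EGR1OV, and both its calls were lost without EGR1OV replicate 1 (lowest log2 change 0.35 against Sham and 0.34 against H/R). It drew only 9 to 29 reads per library. The copy Bcl2a1a, at 0.678 FPKM in Sham and 1.15 in EGR1OV, was not called (log2 change 0.35, limma adjusted p = 0.103). Bcl2l2 (Bcl-w) was at 11.97 ± 0.664, 11.9 ± 1.31 and 12.3 ± 0.449 FPKM, with no call. Cflar (c-FLIP), the brake on caspase-8 that lies upstream of Bid, was at 11.7 ± 0.511, 11.7 ± 0.631 and 14.6 ± 0.611 FPKM, and its EGR1OV difference of 0.30 (limma adjusted p = 0.000777) stayed under 1.3-fold.

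Levels were compared with Bid over the 9 libraries for 7171 protein-coding genes whose mean over these libraries was at least 5 FPKM. The closest were Ascc3 (Pearson's r of log2(FPKM + 1) 0.9992), Trim21 (0.9988), Nampt (0.9988), Gbp7 (0.9986) and Rab5c (0.9984). Ascc3, Trim21 and Gbp7 had means under 5 FPKM in Sham and in H/R, so they passed this filter only through the EGR1OV libraries. The 9 points fall into EGR1OV on one side and the other groups on the other, so these values describe a shared difference between groups. Trim21 and Gbp7, both interferon-inducible, had means of 1.83 and 1.401 FPKM in Sham and 19.0 and 21.9 in EGR1OV.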

How the data were processed

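RNA was sequenced in 9 libraries, 3 for each of Sham, H/R and EGR1OV, with groups and replicate numbers read from the titles. The authors deposited FPKM for each gene and library, with no pooling of replicates. The submitters' processing notes name the build mm9 and the tools HISAT2 2.1.0, Bowtie2 2.2.3 and TopHat2, without saying which step each served; of the deposited gene positions 94.6% equalled GENCODE M21 on GRCm38, so positions are given as in the table. The counter and its use of strand are not given in the sources used here.

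Multiplying FPKM by exon length recovered reads: of 162884 values of 1 to 1000 reads 94.0% were whole within 0.02 reads, and depth was 16183617 to 18384022 reads per library. The 10 genes drew 387 to 3714 reads per library, and Bad was the exception whose reads were not whole. Replicates of a group differed beyond sampling noise (chi-square per degree of freedom 1.97 to 3.59), so none was merged.

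The scale of the tests was log2(FPKM + 1), on which changes of low genes are understated, and 1 limma fit held all 9 libraries (limma 3.58.1, R 4.3.3, trend, two-sided, Benjamini-Hochberg) and the 13985 genes whose mean reached 0.5 FPKM. Calls needed an adjusted p under 0.05 together with a change of 1.3-fold, relaxed to 1.2-fold where H/R was set against Sham; both limits against Sham are those of the study. The script was also run on simulated data with set changes larger than the 1.2- and 1.3-fold limits, so that run did not test those limits. The replicate number was not used as a block, since deviations of same-numbered libraries did not move together (r from -0.195 to 0.263). Alternatives were another pseudocount (0.1), other filters (none, 5 FPKM), median-ratio scaling, quantile normalization, a replicate block, no trend, protein-coding genes only, voom on recovered reads, only the groups compared, no fold threshold, and each library left out.

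The members, the wider list and the markers were chosen with earlier results of these data known. Named are the 10 members, the called genes of the wider list (at most 4 for each role), Bax, Bok, Bcl2l2, Bbc3, Pmaip1, Diablo, Xaf1, Birc5 and Cflar, the 5 genes most like the member with the largest change, and Egr1. Values of Bmf, Bnip3l, Bcl2l13, Bcl2a1a, Gpr137 and single markers stand where a result turns on them. Bcl2l10, Bcl2a1c and Aqp2 were not analysed here. In 26 rows a symbol turned into a date was restored by its gene identifier.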

Additional observations from a re-analysis of the deposited data

Results flagged for a closer look

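For 5 of the 10 genes the change in EGR1OV differed from the change in H/R, by the test of EGR1OV against H/R (limma, Benjamini-Hochberg), beside 18.9% of all genes. These are the same calls as given above for that comparison. The log2 difference between the changes was 1.169 for Bid (adjusted p = 2.38e-08), 0.7388 for Birc3 (2.17e-06), 0.596 for Bcl2l11 (2.86e-05), 0.5363 for Bak1 (6.11e-06) and -0.5828 for Bcl2 (5.8e-05). Each was in the same direction in 3 of 3 EGR1OV libraries against every H/R library.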

How the results depend on the processing

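Of the changes of single members, 288 kept their direction and side of the thresholds under other settings and 6 did not, and with a library left out 264 kept both and 6 did not. Leaving out a library of the group not compared cannot change a log2 value. Nor can another filter, protein-coding genes only, the replicate block, no trend or only the groups compared. There the direction was fixed in advance and only the adjusted p could move, so these counts overstate how stable the changes are. With a mean of at least 5 FPKM Bcl2 and Bcl2l11 are no longer tested, and the members called were 3 for EGR1OV against Sham and 3 against H/R. That filter gave 2, 1 and 4 called genes of the wider list for EGR1OV against Sham, H/R against Sham and EGR1OV against H/R. Over all genes it called 17.3%, 4.9% and 20% in the same order. With no fold threshold, the wider list had 13, 6 and 16 in the same order. The members had 7, 1 (Birc3) and 7. The share of all genes without a fold threshold was not computed. Leaving out a library gave 0 to 1 members for H/R against Sham, beside 3.21% to 4.14% of all genes. The other exception among calls was Bak1 in EGR1OV against Sham, with 0.3647 under quantile normalization. Reversals of direction concerned values that were never called: Bad, EGR1OV against Sham, was -0.03676 under quantile normalization; Bcl2l1, H/R against Sham, was 0.005032 under median-ratio scaling; Birc2, EGR1OV against H/R, was -0.0264 under quantile normalization; Bcl2l1, EGR1OV against H/R, was -0.06226 under median-ratio scaling and -0.07582 under quantile normalization. With libraries left out, the range was -0.0842 to 0.02105 for Xiap (EGR1OV against Sham), -0.003666 to 0.08643 for Bcl2 and -0.01387 to 0.0966 for Bcl2l11 (both H/R against Sham), and -0.01034 to 0.01761 for Bcl2l1 (EGR1OV against H/R). The cause was not tested.

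Scaling moved the split of calls over all genes: the share of calls that were higher was 60.3% for EGR1OV against Sham as deposited, 54.9% with median-ratio scaling and 45.9% with quantile normalization, and 37.7%, 58.2% and 56.5% for H/R against Sham, and 63.2%, 51% and 42.5% for EGR1OV against H/R. With the replicate block the members called were 5, 0 and 5, as without it, beside 16.5%, 3.69% and 19% of all genes. The wider list then had 6, 2 and 8 calls, with Birc5 in H/R against Sham lost. The differences of Birc2 and Mcl1 in H/R lay under the fold threshold under every alternative.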
